A study of Mus musculus with 9 samples.

Results

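The genes described here are the sarcomeric actins Acta1 and Actc1, the troponin genes Tnnt2, Tnni3, Tnni1 and Tnnc1, the tropomyosin gene Tpm1, the titin gene Ttn and the alpha-actinin gene Actn2. They were chosen by symbol, and all 9 were found among the 55291 gene symbols of the count table, each in 1 row. In striated muscle the thin filament is a polymer of actin with tropomyosin lying along it, and troponin sits on tropomyosin and moves it when calcium binds. Titin spans from the Z-disc to the M-line and gives the sarcomere its elasticity, and alpha-actinin crosslinks thin filaments at the Z-disc. The adult mouse ventricle uses mainly cardiac actin and cardiac troponin I, whereas skeletal actin (Acta1) and slow skeletal troponin I (Tnni1) belong to the developing heart, and Acta1 is a classical gene of the hypertrophied heart.

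RNA was sequenced from mouse heart tissue in 3 groups of 3 libraries each. KO-TAC hearts came from c-Myc flox/flox mice with a tamoxifen-inducible Tcf21 iCre, which deletes Myc in cardiac fibroblasts, and underwent transverse aortic constriction (TAC), surgery that makes the left ventricle pump against a narrowed aorta, with 12 weeks in their titles. Tamoxifen was given at 45 mg/kg for 5 days to this line; whether the wild-type groups also had it is not stated. TAC hearts were wild type, also with 12 weeks in their titles, and Control hearts were wild type and, by the design text, sham-operated. All mice were male and 8 to 12 weeks old at surgery. No unloaded knockout group was analysed here, so Cre, tamoxifen and Myc deletion cannot be told apart, and the deletion is aimed at fibroblasts while the genes below are made mainly in cardiomyocytes. Total counts were 59702513 to 109162107 per library. Levels are CPM, counts per 1000000 reads after TMM scaling, and every difference is a log2 value with its standard error (SE) from 1 edgeR fit to the 9 libraries. A gene passed at an adjusted p under 0.05 over the 19051 genes tested.

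Myc, the targeted gene, was at 4.75 CPM or less in KO-TAC hearts and at 6.22 CPM or more in TAC hearts. The fitted log2 value of -1.44 (SE 0.41) did not pass (edgeR adjusted p = 0.56). Without overlap, 4.8% of all genes were lower and 5.17% higher in KO-TAC than in TAC. Control hearts had Myc at 1.55 to 2.47 CPM. KO-TAC replicates 1 and 3, at 4.22 and 4.75 CPM, lay above that range, and KO-TAC replicate 2, at 1.87 CPM, lay within it. These are whole-tissue levels, not those of fibroblasts. The 3 TAC hearts were unlike one another. The summed level of 15 cardiomyocyte markers, such as Myh6, Atp2a2 and Ryr2, was 42924, 62558 and 70880.3 CPM in KO-TAC replicates 1, 2 and 3. TAC replicates 1, 2 and 3 had 40595, 81524 and 10552 CPM, while Control hearts had 76519 to 77254 CPM. TAC replicate 3 was thus 7.28-fold below the control mean, while TAC replicate 2 lay near it. The sum is weighted toward Myh6, which was at 33544 CPM on average in Control hearts. All 15 markers had a fitted level below control in TAC, but by unequal amounts, from log2 -1.52 for Ryr2 to -0.05 for Des. In bulk RNA, fewer cardiomyocytes and less RNA per cardiomyocyte cannot be told apart. Fitted differences of TAC from control are therefore also given without TAC replicate 2 and without TAC replicate 3.

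The promoters of the 2 actin genes are shown because Acta1 was the member that differed most between loaded and unloaded hearts and Actc1 is its cardiac counterpart. Each window runs from 250 bases before to 50 after the annotated start, is read 5′ to 3′ on the gene's own strand (minus for both), and comes from RefSeq on GRCm38.p6. The Acta1 window is chr8:123894726-123895025 and the Actc1 window is chr2:114052826-114053125. Capitals mark the CArG box, the motif of serum response factor, and in Acta1 also the MCAT motif CATTCC of TEAD factors.
Acta1: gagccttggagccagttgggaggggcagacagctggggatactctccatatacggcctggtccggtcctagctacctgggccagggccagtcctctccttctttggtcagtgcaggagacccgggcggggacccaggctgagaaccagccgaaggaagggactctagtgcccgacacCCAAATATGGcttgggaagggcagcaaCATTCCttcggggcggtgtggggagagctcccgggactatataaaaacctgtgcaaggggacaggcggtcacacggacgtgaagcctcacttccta
Actc1: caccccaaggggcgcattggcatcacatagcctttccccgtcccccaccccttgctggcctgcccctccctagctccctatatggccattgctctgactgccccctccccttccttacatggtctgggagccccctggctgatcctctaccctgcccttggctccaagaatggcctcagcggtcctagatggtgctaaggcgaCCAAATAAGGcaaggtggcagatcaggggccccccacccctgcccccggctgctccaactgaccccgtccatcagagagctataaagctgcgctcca
The CArG box began 73 bases before the start in Acta1 and 47 bases before it in Actc1, and the MCAT motif of Acta1 began 46 bases before the start. Both strands were searched, and the 2 motifs of Acta1 do not overlap. The CArG box was searched as CCWWWWWWGG, with W for A or T. The 9 genes have 11 windows, so the counts of genes below are not shares of windows. A CArG box was found in 2 of the 9 genes, the 2 actins, and in 1.63% of the 32851 promoter windows of the mouse. CATTCC or its reverse complement was found in 5 of the 9 genes (Acta1, Tnnt2, Tnnc1, Tpm1 and Ttn) and in 14.7% of all windows. These matches describe the letters of the windows only.

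Acta1 (chromosome 8, 123891769 to 123894751, GRCm38), skeletal muscle alpha-actin, was higher in every loaded heart than in every control heart. It was counted at 1977, 4862 and 566 CPM in KO-TAC replicates 1, 2 and 3. In TAC replicates 1, 2 and 3 it was at 1914, 568 and 523 CPM, against 166, 20.2 and 151 CPM in Control replicates 1, 2 and 3. The ranges of the loaded groups overlapped, and neither overlapped the control hearts, although control replicate 2 was far below the other control hearts. Of all genes, 14.1% were higher and 14% lower in TAC than in control without overlap. In KO-TAC against control these shares were 12.9% and 13.6%.

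**Figure D1:**
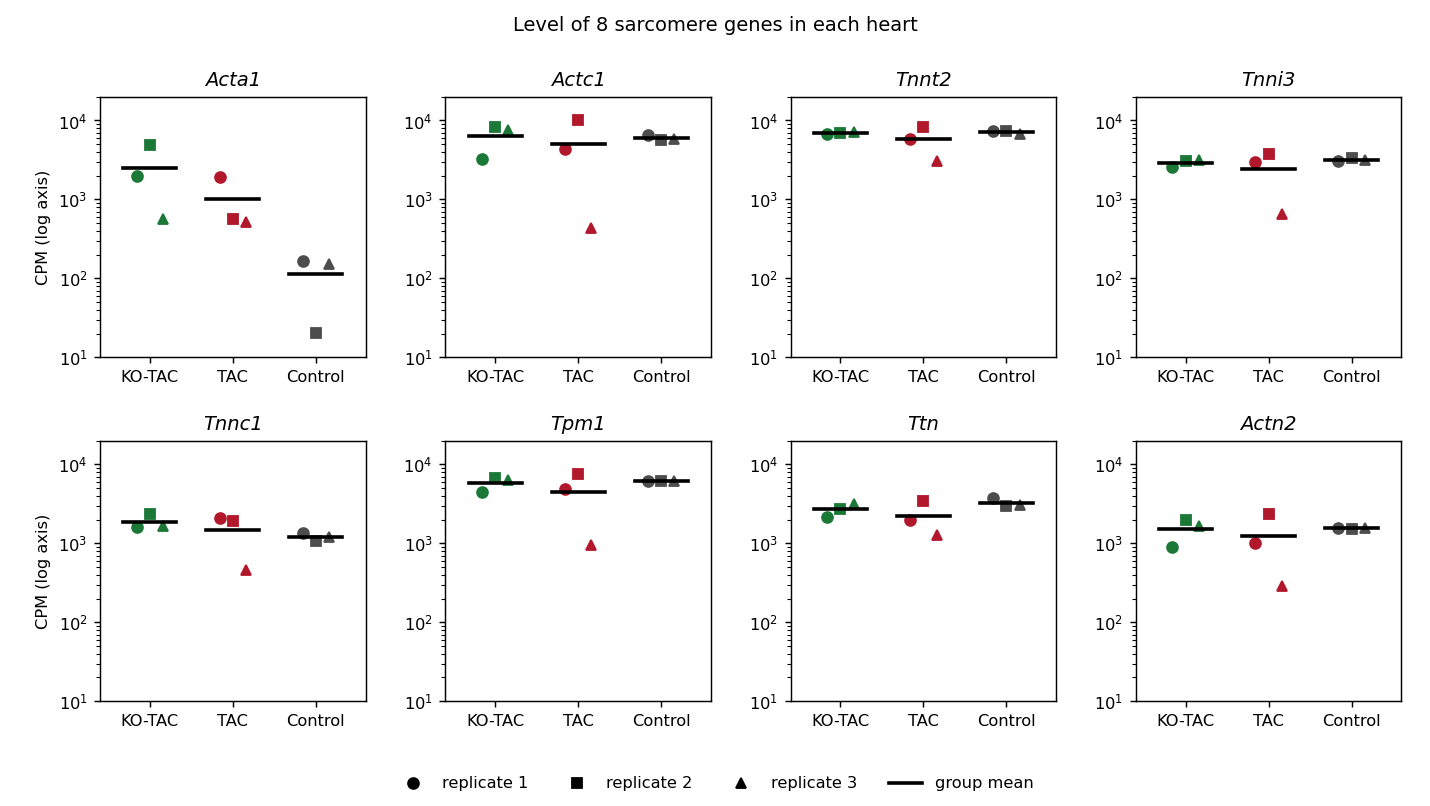
CPM on a log axis for 8 sarcomere genes in KO-TAC, TAC and Control hearts; each point is 1 heart, its shape gives the replicate number and the bar is the group mean. Acta1 lies above 500 CPM in all 6 loaded hearts and at 166 CPM or less in control hearts, and TAC replicate 3 is the lowest heart for the 7 genes other than Acta1.

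On the log2 scale the TAC level of Acta1 was 3.16 (SE 0.99) above control, an 8.92-fold difference that did not pass (edgeR adjusted p = 0.15). The KO-TAC level was 4.46 (SE 1.05) above control, a 22.0-fold difference (edgeR adjusted p = 0.77), and 1.30 (SE 0.93) above TAC, 2.46-fold (edgeR adjusted p = 0.73). An adjusted p also depends on how many other genes had a low p. At an unadjusted edgeR p under 0.05, 13.2% of all genes were higher and 8.08% lower in TAC against control, and 3.52% and 2.24% in KO-TAC against control. Of the 8 members tested, 0 passed in any comparison, where 0% of all genes passed too. DESeq2, run as an alternative, called Acta1 higher in TAC than in control (adjusted p = 0.0061), with 5.68% of all genes called higher and 2.87% lower. It also called Acta1 higher in KO-TAC than in control (adjusted p = 8.6e-05), where 0.305% of all genes were called higher and 0.163% lower. In KO-TAC against TAC it called 0 members, beside 0.41% of all genes higher and 0.615% lower. limma-voom called Acta1 higher in both comparisons with control (adjusted p of 0.017 in TAC and 0.036 in KO-TAC), beside 18.2% and 2.4% of all genes. Without TAC replicate 2 edgeR called Acta1 in TAC against control as well (log2 3.44, adjusted p = 0.038), beside 13.5% of all genes called higher and 14% lower. Without TAC replicate 3 the difference was 3.45. The size depended on single hearts: the TAC-to-control fold was 4.86 without TAC replicate 1 and 11.7 without control replicate 1. The KO-TAC-to-control fold was 11.2 without KO-TAC replicate 2, and the KO-TAC-to-TAC fold was 4.53 without TAC replicate 1 and 1.27 without KO-TAC replicate 2.

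Skeletal muscle carried over into the samples would also bring Acta1, so its markers were read in the same hearts. The 18 markers summed to 34.4 to 87.97 CPM in KO-TAC, 21.3 to 76.8 CPM in TAC and 21.0 to 33.9 CPM in Control hearts, most of it from Mybpc2, Myl1 and Casq1. Of the 7 skeletal markers that passed the filter on low counts, 6 were higher and 1 lower in TAC than in control, and 5 were higher and 2 lower in KO-TAC than in control. Their median log2 difference was 0.91 in each, with 0 passing in edgeR or DESeq2. At an unadjusted edgeR p under 0.05, 1 was higher and 1 lower in each. Of all genes, 13.2% were higher and 8.08% lower at that threshold in TAC against control, and 3.52% and 2.24% in KO-TAC against control. By group, most of these markers were thus higher in loaded than in control hearts, as Acta1 was, but their sum did not follow Acta1 in every heart. In TAC replicate 3 the sum was 21.3 CPM, within the control range, with Acta1 at 523 CPM. In KO-TAC replicate 3 it was 34.4 CPM, near the 33.9 CPM of control replicate 1, with Acta1 at 566 CPM. The other loaded hearts had sums of 59.9 to 87.97 CPM. In both the sum and Acta1, control replicate 2 was the lowest of the 9 hearts and KO-TAC replicate 2 the highest. The part of these markers in the Acta1 difference was not tested. The genes of the fast and type 2 skeletal myosins, Myh4, Myh1 and Myh2, did not exceed 0.144 CPM in any heart. Fitted log2 differences of TAC from control were 4.04 (SE 1.92) for Myh8, which did not exceed 0.436 CPM, and 1.74 (SE 0.64) for Jsrp1. Atp2a1, the 1 lower marker, was at -1.49 (SE 0.59). The regulators Myf5 and Myf6 had 0 counts in all 9 libraries, while Myod1 and Myog had at most 10 and 12 counts in a library.

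Actc1 (chromosome 2, 114047282 to 114053548), the cardiac alpha-actin and the most abundant member per kilobase of exon in each group, had no common direction. It was at 3220.3, 8177 and 7482 CPM in KO-TAC replicates 1, 2 and 3, and at 4298, 10155 and 439 CPM in TAC replicates 1, 2 and 3, against 6464, 5653 and 5889 CPM in the 3 Control hearts. TAC replicate 3 was 13.7-fold below the control mean and TAC replicate 2 was 1.69-fold above it. The fitted log2 differences were -0.27 (SE 0.86) for TAC against control, 0.34 (SE 0.86) for KO-TAC against TAC and 0.07 (SE 0.86) for KO-TAC against control, all below their errors (edgeR adjusted p of 0.87, 0.90 and 0.99). Against control, the TAC difference was -1.34 without TAC replicate 2 and 0.26 without TAC replicate 3.

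Within a library the share of Acta1 in the sum of both sarcomeric actins, per kilobase of exon, does not depend on how libraries are scaled. It was 39.3%, 38.5% and 7.38% in KO-TAC replicates 1, 2 and 3, and 31.9%, 5.56% and 55.7% in TAC replicates 1, 2 and 3. In Control replicates 1, 2 and 3 it was 2.63%, 0.376% and 2.62%. All 6 loaded hearts lay above all control hearts, and in TAC replicate 3 the reads of Acta1 outnumbered those of Actc1 (45230 against 37912). The group means were 28.4% ± 18.2 in KO-TAC, 31.1% ± 25.1 in TAC and 1.88% ± 1.30 in Control hearts (SD, n = 3 each), and the loaded groups differed by less than their spread. The TAC mean was 43.8% without TAC replicate 2 and 18.7% without TAC replicate 3. The 2 genes have closely similar coding sequences, and no source says how reads matching both were handled, so part of the reads may be assigned to the wrong actin.

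**Figure D2:**
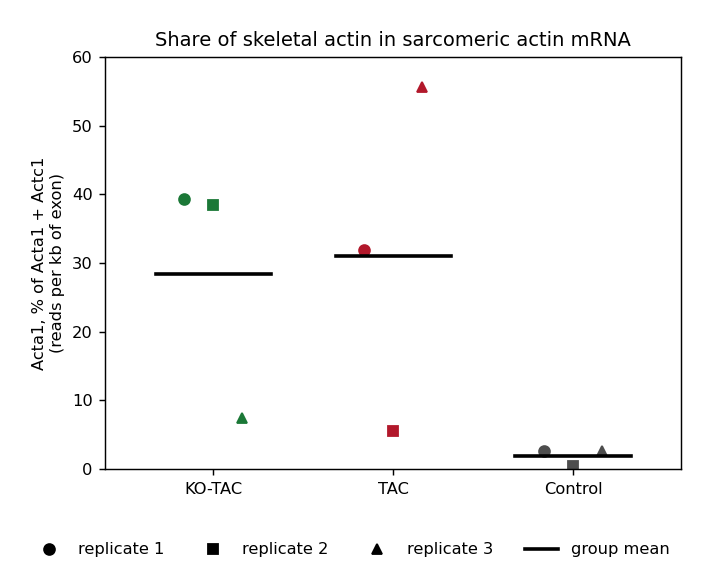
Acta1 as a percentage of Acta1 plus Actc1 reads per kilobase of exon in each heart of the KO-TAC, TAC and Control groups; points are hearts and bars are group means. Loaded hearts run from 5.56% to 55.7% and control hearts from 0.376% to 2.63%.

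Tnnt2 (chromosome 1, 135836354 to 135852260) encodes cardiac troponin T, which ties the troponin complex to tropomyosin. It was at 6757, 6997 and 7111 CPM in KO-TAC replicates 1, 2 and 3, at 5767, 8369 and 3097 CPM in TAC replicates 1, 2 and 3, and at 7252, 7454 and 6801 CPM in the 3 Control hearts. The KO-TAC hearts were as tight as the control hearts, with an SD of log2 CPM of 0.038 against 0.068, where the TAC hearts had 0.725. The medians over all genes were 0.33 in KO-TAC, 0.604 in TAC and 0.171 in Control hearts. The fitted difference was -0.32 (SE 0.45) in TAC against control and -0.04 (SE 0.45) in KO-TAC against control (edgeR adjusted p of 0.69 and 0.99). The TAC difference was -0.70 without TAC replicate 2 and -0.03 without TAC replicate 3.

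Tnni3 (chromosome 7, 4518305 to 4524229) encodes cardiac troponin I, the inhibitory subunit. Its level was 2546, 3078 and 3141 CPM in KO-TAC hearts, 2977, 3766 and 649 CPM in TAC hearts and 3061, 3311 and 3134 CPM in Control hearts, each in the order of the replicates. TAC replicate 3 was 4.88-fold below the control mean, and the other 8 hearts lay between 2546 and 3766 CPM. Fitted differences were -0.36 (SE 0.56) in TAC against control and 0.25 (SE 0.56) in KO-TAC against TAC (edgeR adjusted p of 0.71 and 0.89). Leaving out TAC replicate 2 gave -0.81 in TAC against control, and leaving out TAC replicate 3 gave 0.08.

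Tnni1 (chromosome 1, 135779434 to 135810989), slow skeletal troponin I of the fetal heart, was barely detected. It had 19, 0 and 7 reads in KO-TAC replicates 1, 2 and 3, 6, 0 and 50 reads in TAC replicates 1, 2 and 3, and 0, 7 and 4 reads in Control replicates 1, 2 and 3. It did not pass the filter on low counts and was not tested. TAC replicate 3, the highest heart, had 0.579 CPM, and 0 reads allowed up to 0.0422 CPM in KO-TAC replicate 2, 0.0468 CPM in TAC replicate 2 and 0.0388 CPM in control replicate 1, for counting error only. Per kilobase of exon Tnni1 made up at most 0.0511% of Tnni1 plus Tnni3. The share of skeletal actin thus differed between loaded and control hearts without overlap, while troponin I reads were almost wholly Tnni3 in each of the 9 hearts.

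Tnnc1 (chromosome 14, 31208312 to 31211729), the calcium-binding subunit troponin C of heart and slow muscle, was at 1589.9, 2385 and 1683 CPM in KO-TAC replicates 1, 2 and 3. In TAC replicates 1, 2 and 3 it was at 2105.5, 1893 and 461 CPM, against 1339, 1059 and 1219.6 CPM in Control hearts. All 3 KO-TAC hearts were above all control hearts, as were TAC replicates 1 and 2 but not TAC replicate 3. The KO-TAC level was 0.65 (SE 0.52) above control, 1.56-fold (edgeR adjusted p = 0.87), and the TAC level 0.30 (SE 0.51) above control (edgeR adjusted p = 0.74), with 0.09 without TAC replicate 2 and 0.72 without TAC replicate 3. Acta1 and Tnnc1 were the 2 of 8 tested members whose KO-TAC and control hearts did not overlap with KO-TAC higher, where 12.9% of all genes did so and 13.6% were lower without overlap. Without KO-TAC replicate 1 the count was 5, with Actc1, Tpm1 and Actn2 added, beside 18.5% of all genes. Without KO-TAC replicate 3 Ttn was lower without overlap (23.1% of all genes), and without control replicate 3 Tnnt2 was (16.9%). In TAC against control Acta1 was the only 1, beside 14.1% of all genes higher and 14% lower. Without TAC replicate 3 Tnnc1 joined it, beside 18.5% of all genes higher and 16.9% lower.

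The balance between the troponin subunits was read as ratios of reads per kilobase within a library. The ratio of Tnnc1 to Tnni3 was 1.24, 1.54 and 1.06 in KO-TAC replicates 1, 2 and 3, 1.40, 0.996 and 1.41 in TAC replicates 1, 2 and 3, and 0.867, 0.634 and 0.771 in Control replicates 1, 2 and 3. Each loaded heart, TAC replicate 3 included, lay above each control heart. The ratio of Tnnt2 to Tnni3 was 0.602 to 0.706 in KO-TAC hearts and 0.577 to 0.630 in Control hearts. In TAC replicates 1, 2 and 3 it was 0.516, 0.591 and 1.27, so that in TAC replicate 3 troponin T kept more of its level than troponin I. The ratio of Tnnt2 to Tnnc1 was 0.394 to 0.571 in KO-TAC hearts and 0.727 to 0.945 in Control hearts. In TAC replicates 1, 2 and 3 it was 0.368, 0.594 and 0.903, so that TAC replicate 3 lay within the control range. These ratios were formed after the values were seen and carry no test. The share of other gene pairs whose ratios separate the groups was not computed.

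**Figure D3:**
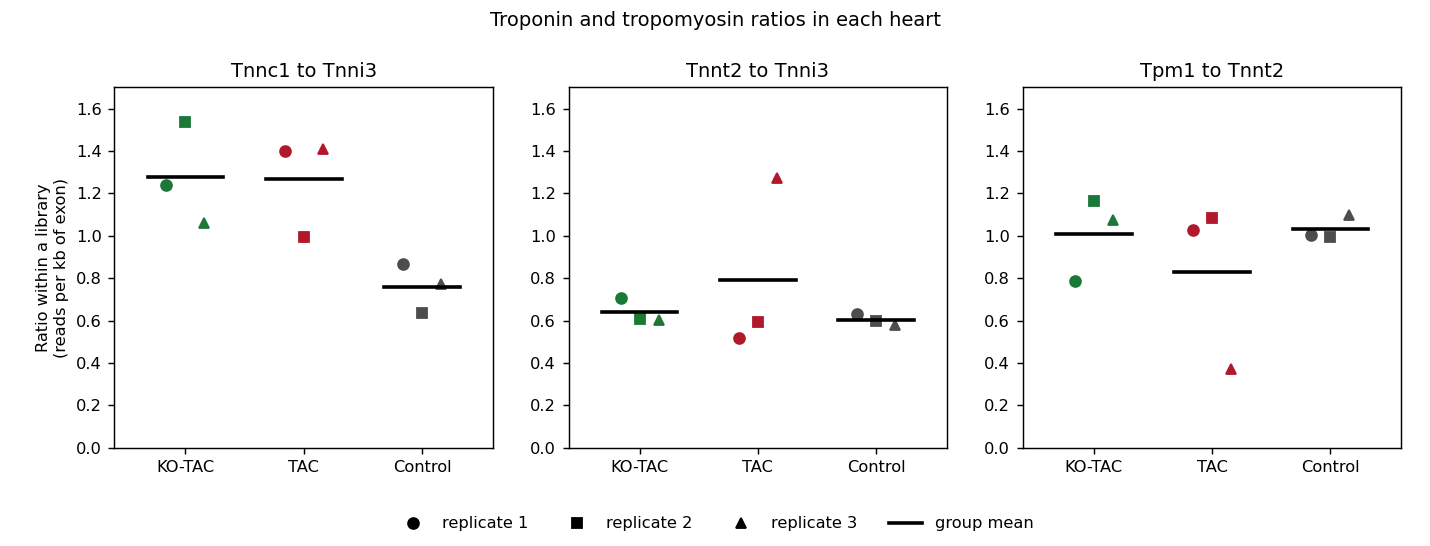
Ratios of reads per kilobase of exon within each library for Tnnc1 to Tnni3, Tnnt2 to Tnni3 and Tpm1 to Tnnt2, by group; points are hearts and bars are group means. The Tnnc1 to Tnni3 ratio is 0.996 or more in loaded hearts and 0.867 or less in control hearts, and TAC replicate 3 stands apart in the other 2 ratios (1.27 and 0.372).

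Tpm1 (chromosome 9, 67022590 to 67049406), the main cardiac tropomyosin, was at 4434, 6816 and 6378 CPM in KO-TAC replicates 1, 2 and 3, at 4952, 7577 and 964 CPM in TAC replicates 1, 2 and 3, and at 6084, 6211 and 6239.6 CPM in Control hearts. Its 3 control hearts were within 0.019 (SD) of one another on the log2 scale. TAC replicate 3 was 6.41-fold below the control mean, and the ratio of Tpm1 to Tnnt2 was 0.372 there, against 0.996 to 1.10 in Control hearts. The fitted difference was -0.46 (SE 0.64) in TAC against control (edgeR adjusted p = 0.68), -1.07 without TAC replicate 2 and 0.01 without TAC replicate 3.

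Ttn (chromosome 2, 76703980 to 76982547), whose transcript is the longest of the set with 116825 bases of merged exons, was at 2186, 2734 and 3184 CPM in KO-TAC replicates 1, 2 and 3. In TAC replicates 1, 2 and 3 it was at 1978, 3485 and 1286 CPM, against 3763, 3002 and 3022 CPM in Control hearts. The TAC level was -0.54 (SE 0.43) from control (edgeR adjusted p = 0.46), and limma-voom with quality weights called it lower (-0.67, adjusted p = 0.032) beside 19.8% of all genes called lower. With edgeR it was -1.0 without TAC replicate 2 and -0.27 without TAC replicate 3. The KO-TAC level was -0.27 (SE 0.43) from control (edgeR adjusted p = 0.92). An annotated antisense gene, Gm13938, overlaps Ttn, and no source states whether counting used the strand.

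Actn2 (chromosome 13, 12269426 to 12340760), the Z-disc alpha-actinin of heart, had a pattern near that of Tpm1. It was at 898, 1956 and 1667 CPM in KO-TAC replicates 1, 2 and 3, at 1009, 2366 and 289.7 CPM in TAC replicates 1, 2 and 3, and at 1583, 1503 and 1575 CPM in Control hearts. The fitted difference was -0.35 (SE 0.64) in TAC against control and 0.30 (SE 0.64) in KO-TAC against TAC (edgeR adjusted p of 0.76 and 0.88). In TAC against control it was -1.26 without TAC replicate 2 and 0.11 without TAC replicate 3.

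**Figure D4:**
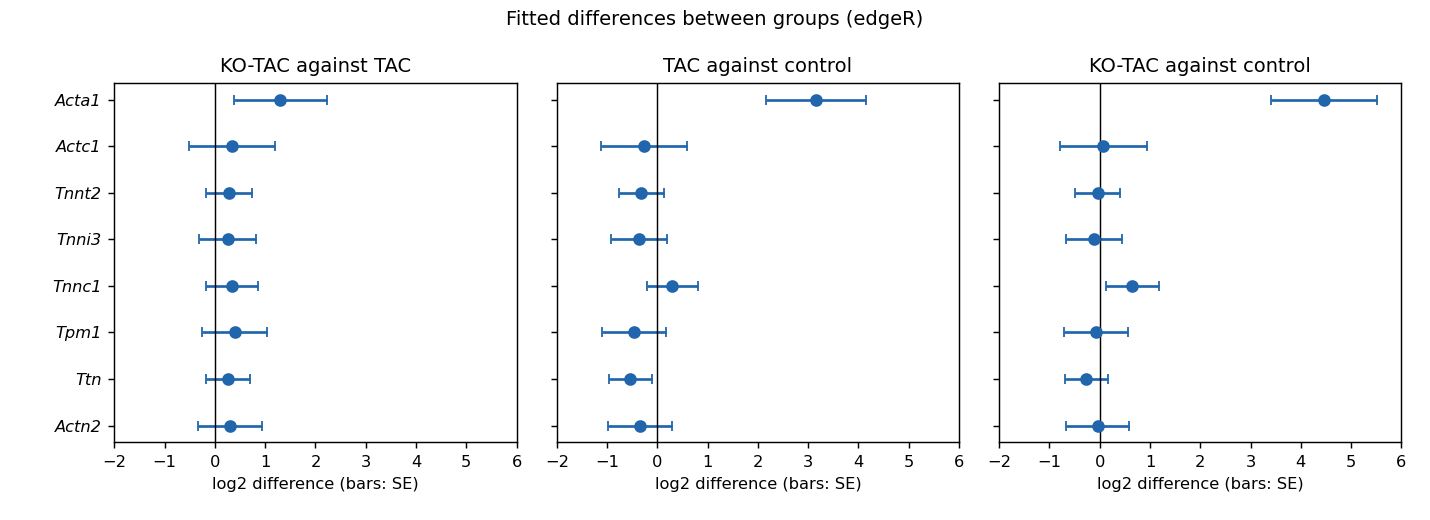
Fitted log2 differences of 8 sarcomere genes with their standard errors in the 3 comparisons. Acta1 lies at 3.16 in TAC against control and 4.46 in KO-TAC against control, and the other genes lie between -0.54 and 0.65 in all 3 comparisons.

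KO-TAC against TAC compared loaded hearts of the fibroblast Myc knockout line with loaded wild-type hearts. Cre, tamoxifen and Myc deletion cannot be told apart in it. All 8 tested members had a fitted level above TAC, and their median log2 difference was 0.32, against 0.01 over all genes tested, of which 50.8% were above TAC. That direction rested on TAC replicate 3. Without it the 7 members other than Acta1 had differences of -0.20 to -0.01, and Acta1 had 1.01. Without TAC replicate 2 the 6 members other than Acta1 and Tnnc1 had differences of 0.65 to 1.41. The KO-TAC and TAC ranges overlapped for all 8 genes, while 5.17% of all genes were higher without overlap and 4.8% lower. Without TAC replicate 2, Tnnt2 and Ttn were higher in KO-TAC without overlap (22.1% of all genes), and without KO-TAC replicate 3 Acta1 was (8.15%). The errors of 0.43 to 0.93 leave room for sizeable differences in either direction, so these data do not show that the 2 groups were alike.

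In TAC against control, 2 of 8 tested members were higher and 6 lower, with a median of -0.33 beside 0.03 over all genes, of which 51.5% were higher. Without TAC replicate 2, 6 members (Actc1, Tnnt2, Tnni3, Tpm1, Ttn and Actn2) were lower in both remaining TAC hearts than in any control heart, beside 30.3% of all genes. Without TAC replicate 3 the fitted differences turned to 6 higher and 2 lower, with Tnnt2 and Ttn lower, so the direction of the tally rested on that heart. In KO-TAC against control, 3 of 8 were higher and 5 lower with a median of -0.04, beside 0.04 over all genes, of which 53.8% were higher. TAC against control and KO-TAC against control share the same control hearts.

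**Figure D5:**
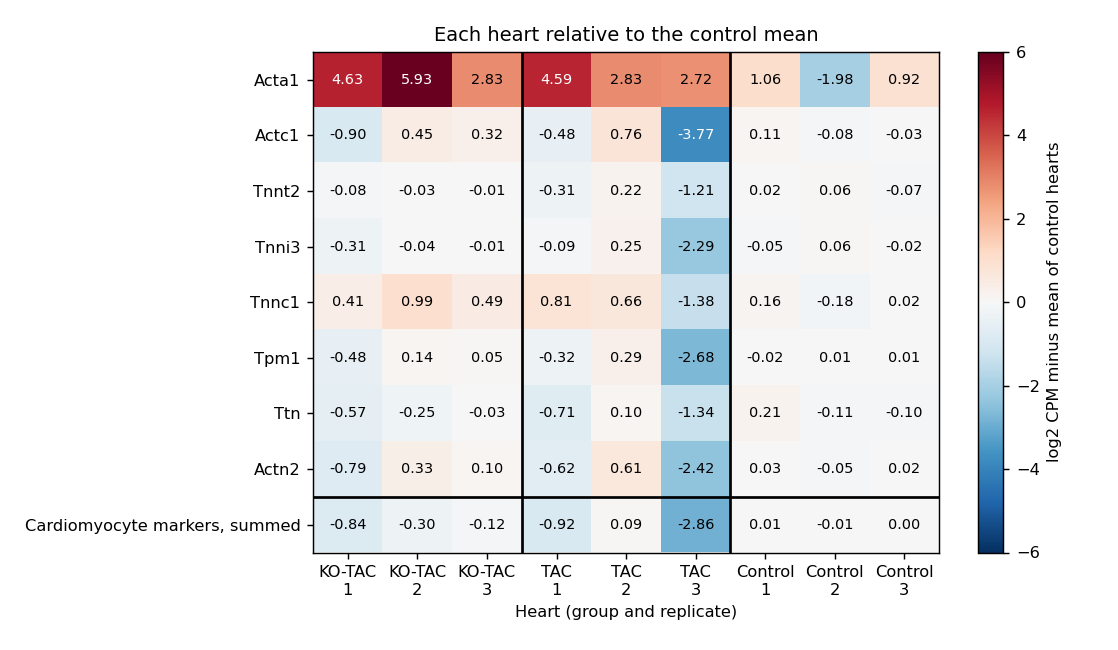
Log2 CPM of 8 sarcomere genes and of the summed cardiomyocyte markers in each heart, minus the mean log2 CPM of the control hearts; red is above and blue below the control mean. TAC replicate 3 is at -3.77 for Actc1 and -2.86 for the marker sum, but at 2.72 for Acta1.

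The members stood at unequal distances from control in the heart with the lowest cardiomyocyte markers. In TAC replicate 3, where the marker sum was -2.86 from the control mean on the log2 scale, Actc1 was at -3.77, Tpm1 at -2.68, Actn2 at -2.42 and Tnni3 at -2.29. Tnnc1, Ttn and Tnnt2 were at -1.38, -1.34 and -1.21 there, and Acta1 was at 2.72. As a share of the marker sum, Acta1 was 4.61%, 7.77% and 0.798% in KO-TAC replicates 1, 2 and 3, 4.71%, 0.697% and 4.96% in TAC replicates 1, 2 and 3, whereas Control hearts had 0.0264% to 0.215%. On this scale too, weighted toward Myh6 as the sum is, the loaded hearts did not overlap the control hearts. Endothelial markers (10 genes) summed to 1186 to 1252 CPM in KO-TAC, 1235 to 2670.1 CPM in TAC and 1046 to 1152 CPM in Control hearts. Fibroblast markers (10 genes) summed to 1855 to 2246 CPM in KO-TAC, 1611 to 4163 CPM in TAC and 1580.2 to 1775 CPM in Control hearts, with TAC replicate 3 highest in both lists. That heart was also highest in erythroid markers, at 3475 CPM against 738 to 1167 CPM in Control hearts, and in macrophage markers, at 450.1 CPM against 222 to 241 CPM in Control hearts. It was lowest in smooth muscle markers, at 551 CPM against 829 to 875 CPM in Control hearts. Atrial markers, a list that includes Nppa, summed to 374 to 1347 CPM in KO-TAC and 448 to 1288 CPM in TAC, against 168 to 224 CPM in Control hearts. Like Acta1, this sum did not overlap between loaded and control hearts. Most of it in loaded hearts was Nppa, at 312 to 1295 CPM in KO-TAC and 385 to 1245 CPM in TAC, against 59.4 to 141 CPM in Control hearts. The list had no common direction: of 7 atrial markers tested, 5 were higher and 2 lower in TAC than in control. In KO-TAC against control 3 were higher and 4 lower. The part of cell makeup in the member levels was not tested.

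Per kilobase of merged exons Actc1 was the most abundant member in each group, at 3889 ± 1659 in KO-TAC, 3068 ± 3024 in TAC and 3709 ± 258 CPM per kilobase in Control hearts (SD, n = 3 each). Ttn was the least abundant member apart from Tnni1, at 23.1 ± 4.28, 19.3 ± 9.63 and 27.9 ± 3.71 CPM per kilobase in the same groups. In Control hearts the order below Actc1 was Tnni3 (1536 ± 62.2), Tnnc1 (1158 ± 135), Tpm1 (953 ± 12.8), Tnnt2 (925 ± 43.1), Actn2 (409 ± 11.5) and Acta1 (73.1 ± 52.1), and Tpm1 and Tnnt2 did not differ beyond their spread. In KO-TAC hearts Acta1 (1607 ± 1426) had rank 3 by its mean, with a range of 368 to 3165 that spans most of its neighbours. With the longest transcript as the length, Actc1 and Tnni3 stayed first and second in Control hearts while Tnnc1 had rank 5, so the middle order depends on the gene model.

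Among 46 other genes of the thin filament, thick filament and Z-disc, 45 were tested and 0 passed with edgeR in each comparison. In TAC against control 21 were higher and 24 lower (median -0.06), with 15 higher and 1 lower at an unadjusted p under 0.05, where 13.2% of all genes were higher and 8.08% lower at that threshold. In KO-TAC against TAC 1 was higher and 8 were lower at that threshold (2.94% and 4.51% of all genes), and in KO-TAC against control 7 were higher and 0 lower (3.52% and 2.24%). Among the most abundant were Mybpc3 (myosin-binding protein C), Ankrd1 (a stretch-responsive titin-binding protein) and Tcap (telethonin, which caps titin at the Z-disc).

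Ankrd1 came closest to Acta1 among them. It was at 2540.3, 3816 and 1624 CPM in KO-TAC replicates 1, 2 and 3, at 2483, 1571 and 1188 CPM in TAC replicates 1, 2 and 3, and at 997, 330.0 and 929.5 CPM in Control replicates 1, 2 and 3. KO-TAC was 1.82 (SE 0.53) above control (edgeR adjusted p = 0.81, DESeq2 adjusted p = 0.041) and TAC was 1.22 (SE 0.53) above control (edgeR adjusted p = 0.23, DESeq2 adjusted p = 0.085). Mybpc3 and Tcap differed from control by -0.30 (SE 0.46) and -0.15 (SE 0.57) in TAC hearts.

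DESeq2 called 9 of the 45 partners as higher in TAC than in control (beside 5.68% of all genes) and 0 as lower. They were chosen after their values were seen: Actb and Actg1, the cytoskeletal actins of all cells; Tpm2, Tpm3 and Tpm4, tropomyosins of smooth muscle, slow muscle and the cytoskeleton; Actn1 and Actn4, the non-muscle alpha-actinins; Pdlim3; and Tnnt3, fast troponin T. Actb was at 597 CPM on average in TAC and 277 CPM in Control hearts, and Tpm4 at 232 CPM in TAC and 88.4 CPM in Control hearts. Both were highest in TAC replicate 3 (915 and 349 CPM), the heart with the highest endothelial and fibroblast sums, and the part of those cells in the difference was not tested.

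The genes whose pattern over the 9 libraries was most like a member's were found by the root-mean-square difference of centred log2 CPM among 8327 genes with a mean of at least 10 CPM. For Acta1 they were Nppa (1.146), Cnksr1 (1.175), Ankrd1 (1.287), Angptl7 (1.288) and Nppb (1.311), set against the 2.25 by which Acta1 itself varied. Nppa and Nppb encode the natriuretic peptides. For Tnnt2 they were Tbl1xr1 (0.064), Tle5 and Dnajc4 (0.068 each), Ppm1b (0.075) and Ppp1ca (0.079), and for Ttn Cdc73 (0.079), Terf2ip (0.08), Jmjd4, Serbp1 and Tnks (0.083 each), with 0.39 and 0.46 as the variation of Tnnt2 and Ttn themselves. Among the members Tnni3 and Tpm1 were nearest to each other (0.17), then Tnnt2 and Ttn (0.19), while Acta1 was at least 2.02 from each of the other 7.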

How the data were processed

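Directional libraries were prepared from total RNA, per the labels' protocols. The values the authors deposited are counts: whole numbers for each gene, with unequal library totals and no sign of normalization. The submitters' processing notes name HISAT2 2.2.1, StringTie 2.2.1, Trim Galore 0.6.10 and DESeq2 1.42.0, and the builds GRCm38 and mm10. How reads were counted, whether by strand, and what was done with reads matching several genes was not stated. Reads of near-identical or overlapping genes may be misassigned, and p-values measure the spread between hearts not stated to be separate animals. Libraries of 1 group differed by more than counting noise (the lowest chi-square was 23.4 for each degree of freedom), so none was counted as a duplicate.

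edgeR 4.0.16 (quasi-likelihood, TMM, filterByExpr with a minimum count of 10, Benjamini-Hochberg) was fitted to 9 libraries with the group as the only term and checked on simulated counts. R 4.3.3 was used, with limma 3.58.1 and DESeq2 1.42.0 as alternatives, beside other scalings and filters, a replicate block, no mitochondrial genes, a fit to 2 groups, and each library left out. Log2 values for patterns and spread used a prior count of 2. Of 8 tested members the lowest count was 1320 and the highest 918120. With 3 hearts a side, the lowest p an exact permutation test allows is 0.1, so none is given. Gene positions and merged exon lengths are from GENCODE M21 on GRCm38.

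The members and lists were chosen with earlier results of these data known. Named genes were the 9 members, Myc, the 4 partners with the highest mean CPM where none passed (1 of them is not reported here), and the 5 genes most like Acta1, Tnnt2 and Ttn. The longest-transcript length, the ratios and the marker-sum scale were added after seeing the data.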

Additional observations from a re-analysis of the deposited data

How the results depend on the processing

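No call among all genes or members was made in the 3 comparisons with edgeR under RLE or upper-quartile factors, library totals, a filter of 1 CPM in 3 libraries, the replicate block or removal of mitochondrial genes. DESeq2 called 1626, 195 and 89 genes in TAC against control, KO-TAC against TAC and KO-TAC against control, with 1, 0 and 1 member. limma-voom called 7230.0, 996 and 991 genes, with 2, 0 and 1 member. In KO-TAC against control, 2 genes were called with no low-count filter and 30 in a fit to those 2 groups. Leaving out 1 library gave 0 to 5477, 0 to 13 and 0 to 4 genes, and 0 to 1, 0 and 0 members; the highest count in the first 2 was without TAC replicate 2. Of 456 recomputed log2 differences of members, 428 kept direction and side of the threshold. That count includes fits without a library of the group not compared, where the differences hardly moved. As 0 members passed in the main fit, keeping the side of the threshold meant not passing.

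With library totals alone the median of all genes moved to 0.29 in TAC against control and 0.28 in KO-TAC against control, and the KO-TAC differences of Tnnt2 (0.19), Tnni3 (0.10), Tpm1 (0.13) and Actn2 (0.14) from control turned positive, still below that median. limma-voom turned Tpm1 (0.05) and Actn2 (0.15) positive in the same comparison. Leaving out 1 library turned signs too. In TAC against control the ranges were -1.34 to 0.26 for Actc1, -0.81 to 0.08 for Tnni3, -1.07 to 0.01 for Tpm1 and -1.26 to 0.11 for Actn2, lowest without TAC replicate 2 and highest without TAC replicate 3. Tnnc1 ran from -0.04 without TAC replicate 1 to 0.72 without TAC replicate 3. In KO-TAC against TAC the lowest values, all without TAC replicate 3, and the highest were -0.19 to 1.41 for Actc1, -0.02 to 0.65 for Tnnt2, -0.20 to 0.69 for Tnni3, -0.07 to 0.68 for Tnnc1, -0.08 to 0.99 for Tpm1, -0.01 to 0.73 for Ttn and -0.15 to 1.22 for Actn2. In KO-TAC against control they were -0.17 to 0.38 for Actc1 (also -0.07 without KO-TAC replicate 3), -0.20 to 0.10 for Tpm1 and -0.28 to 0.22 for Actn2. The causes were not tested.

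The replicate numbers are not stated to pair the hearts. Same-numbered hearts had correlations of -0.25 to 0.12 between their deviations, and 4 of 9 correlated best with their own number. With 3 hearts a group these values cannot settle whether hearts were paired. With the number as a replicate block 0 genes passed in each comparison and Acta1 was at 2.93 in TAC against control.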

Other observations

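Control replicate 2 had the lowest level of the 9 hearts in Acta1 and in the 5 genes whose pattern was nearest to it. Acta1 was at 20.2 CPM there against 166 and 151 CPM in control replicates 1 and 3, with counts of 1320 against 12846 and 12585. Nppa was at 59.4 CPM in that heart against 128 and 141 CPM, Nppb at 35.5 against 133 and 86.9 CPM, Ankrd1 at 330.0 against 997 and 929.5 CPM, Cnksr1 at 2.01 against 6.09 and 5.98 CPM, and Angptl7 at 0.644 against 1.228 and 1.423 CPM. The 5 genes were ranked by likeness to Acta1 over all 9 libraries, this heart included, so a low value there is partly built into the ranking. The cardiomyocyte marker sum of that heart lay within the narrow control range of 76519 to 77254 CPM. Acta1 in KO-TAC against control was 22.0-fold higher with this heart and 15.6-fold higher without it.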
